A study of Mus musculus with 12 samples.

Results

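The genes on either side of Bax on mouse chromosome 7 were examined in cells that lack Bak and Bax. The region holds every probe of the array that the deposited annotation places on chromosome 7 with a start in a window reaching 20 Mb to each side of the Bax probe, without the probes of Bax, Ndn, Snrpn and Nkg7. These are 582 of 45281 probes, for 360 genes. Of the 582 probes, 220 probes for 144 genes were bright enough to be tested: they were above background (detection p under 0.05) on at least 3 of the 12 arrays. The other 362 were above background on fewer, 320 of them on none, and were not tested. RNA levels were read with Illumina Mouse WG6V2 BeadChips, glass arrays of beads that carry one oligonucleotide probe each, in 4 groups of 3 samples. In experiment 1, cells without caspase-9 (Casp9 KO) were set beside wild-type cells (WT experiment 1). In experiment 2, cells without both Bak and Bax (Bak/Bax DKO) were set beside wild-type cells of their own (WT experiment 2). Casp9 KO shared a beadchip with WT experiment 1, and Bak/Bax DKO shared another with WT experiment 2. All samples were RNA of sorted bone marrow cells, negative for lineage markers and positive for Kit and for CD45.2, from chimeric mice 12 to 16 weeks after a transplant of fetal liver cells of embryonic day 13.5. Kit and CD45.2 selection enriches blood stem and progenitor cells of donor origin. The strain is given as C57BL/6 for every sample, and the labels say no more about the origin of the targeted alleles or their flanking DNA. The series calls the samples independent without naming separate animals. P-values therefore cover the variation among samples only, and the number of arrays limits the precision.

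BAX and BAK are pore-forming proteins of the BCL-2 family: when activated they open the outer mitochondrial membrane and release cytochrome c, and the initiator protease caspase-9 acts downstream of that step. As general background, a gene targeted in embryonic stem cells of one mouse strain and then bred onto another strain stays linked to a stretch of the first strain's chromosome, because recombination near a selected allele is rare. Genes in such a stretch can carry sequence differences that alter transcript levels, and a difference inside the sequence that an array probe binds can alter the signal without any change of level. Genes with several probes allow these probes, here called sister probes, to be set against each other.

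The RNA was that of whole sorted populations, so fewer cells of a type and less RNA per cell cannot be told apart. Mean bead intensity was between 321.5 and 522.0 on 11 arrays and 234.5 on Bak/Bax DKO replicate 2, where the correlation of log2 values with each other array was 0.856 to 0.869 across probes. On that array 16 of the 220 tested flanking probes (7.27%) lay more than 3 log2 units below the lowest of the other 5 arrays of experiment 2, against 945 of all 18867 tested probes (5.01%). Kit was at 12.53 to 12.96 in Bak/Bax DKO, against 11.89 to 12.35 in WT experiment 2 (log2). Cd34 was at 8.57 to 9.30 and 8.44 to 8.76. The summed intensity of 7 progenitor markers was 11000 to 14800 in Bak/Bax DKO and 6420 to 8270 in WT experiment 2, and 2 of the 6 tested rose. That of 5 antigen presentation markers was 2650 to 8410 and 866 to 1390, and 4 of the 4 tested rose. That of 8 neutrophil markers was 36000 to 54700 and 65000 to 68300, and 0 of 8 were called by limma (adjusted p under 0.05). Of 6 T and NK cell markers, summed at 1440 to 3370 and 4670 to 5630, 1 of the 2 tested fell. That marker was Nkg7, which itself lies beside Bax (-2.02 Mb) and was left out of the flanking probes by name. Its fall therefore cannot serve as a reading of cell types apart from the region. Erythroid markers summed to 10700 to 21500 in Bak/Bax DKO and 14100 to 19700 in WT experiment 2. Megakaryocyte markers summed to 986 to 3540 and 1320 to 2360, and monocyte and macrophage markers to 1040 to 2000 and 1270 to 1430. For plasma cell markers the sums were 132 to 2980 and 2960 to 3790. All of these sets overlapped between the groups, and 0 of their tested markers were called by limma in Bak/Bax DKO. Ptprc, which encodes CD45, was at 5.19 to 6.06 and 4.98 to 5.86. The part of these shifts in the results below was not tested.

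Bax itself, the targeted gene, was read by 1 probe (ILMN_2907655, chromosome 7, 52717276 to 52717325). The WT experiment 2 arrays read 9.34, 10 and 9.76, and the Bak/Bax DKO arrays 7.72, 8.02 and 7.91 (normalized log2 intensity). The groups did not overlap, and the probe fell by 1.82 (SE 0.17, limma adjusted p = 3.8e-04) while staying above background on all 3 knockout arrays. Positions are those of the deposited annotation, whose genome build the sources used here do not name. Distances are counted from the start of this probe and are negative toward lower coordinates.

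4 of the genes described below had 2 probes that moved the same way: Htatip2 and Dkkl1 fell, and Csrp3 and Fcgrt rose. Their promoters are printed because these are the flanking genes with 2 probes called in 1 direction. Each line gives the 250 bases before the first RefSeq start in the table used (GRCm38.p6), 5′ to 3′ on the strand of the gene. Capitals mark the letters of TATATA and GGGCGG, searched on both strands; TATAAA was searched too and is in none of the 4.
Htatip2 (chr7:49758856-49759105, + strand): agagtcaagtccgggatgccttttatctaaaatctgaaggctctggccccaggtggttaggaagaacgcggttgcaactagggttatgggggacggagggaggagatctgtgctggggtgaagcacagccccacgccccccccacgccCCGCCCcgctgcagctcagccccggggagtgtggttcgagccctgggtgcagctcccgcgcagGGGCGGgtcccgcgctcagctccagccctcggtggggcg
Dkkl1 (chr7:45211884-45212133, - strand): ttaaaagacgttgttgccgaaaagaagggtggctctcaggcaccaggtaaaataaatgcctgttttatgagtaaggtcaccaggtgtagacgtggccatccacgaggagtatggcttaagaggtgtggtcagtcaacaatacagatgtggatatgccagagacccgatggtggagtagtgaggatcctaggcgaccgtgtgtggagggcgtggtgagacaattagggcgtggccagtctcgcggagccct
Csrp3 (chr7:48848052-48848301, - strand): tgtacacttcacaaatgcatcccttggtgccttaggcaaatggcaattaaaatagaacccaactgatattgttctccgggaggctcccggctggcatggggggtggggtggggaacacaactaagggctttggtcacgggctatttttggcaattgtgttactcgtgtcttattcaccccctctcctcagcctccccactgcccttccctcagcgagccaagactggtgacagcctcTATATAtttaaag
Fcgrt (chr7:45103823-45104072, - strand): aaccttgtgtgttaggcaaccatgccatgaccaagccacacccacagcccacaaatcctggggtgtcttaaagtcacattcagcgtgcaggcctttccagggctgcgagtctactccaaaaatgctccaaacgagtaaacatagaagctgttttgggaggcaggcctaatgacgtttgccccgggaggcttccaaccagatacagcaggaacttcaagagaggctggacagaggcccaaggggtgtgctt
TATATA, as in the Csrp3 promoter 13 bases before the start, is in 5.25% of the 32851 promoters of that table, and GGGCGG, which the Htatip2 window holds 2 times, is in 10756 of them. TATAAA is in 12.4%. The Htatip2 window has 17 CG dinucleotides and a GC content of 67.2%, against medians of 6 and 52.4% over the table. The other 3 windows have 5 to 11 CG dinucleotides and a GC content of 51.2% to 53.2%. A match is a description of letters, not a bound site. The reference sequence says nothing of the sequence carried by these cells.

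The first comparison asked which flanking genes differed between Bak/Bax DKO and WT experiment 2. At a limma adjusted p under 0.05 over all probes, 27 of the 220 tested flanking probes were called (12.3%), against 1.82% of all 18867 tested. They stood for 22 genes. In 14 probes the level rose, against 1.43% of all probes, and in 13 it fell, against 0.392%. Among all probes rises outnumbered falls, at 270 against 74. Over the whole window around Bax the 2 directions were about equal, while within 1 Mb of Bax 9 probes rose and 4 fell. The median change was -0.03 over the flanking probes and 0.08 over all probes (log2), and the median size of change was 0.26 and 0.22. Of these called probes, 2 (Tead2 and Mrgprb2) passed the brightness filter through Bak/Bax DKO arrays only, where they were high, so their difference supports nothing.

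All 27 called probes lay in one stretch of 8.58 Mb that ran from -2.04 Mb (Siglecg) to 6.54 Mb (Svip). The first and the last called probe bound this stretch, so the absence of calls outside it and the raised share inside it follow from how it was drawn. Counts inside and outside it are descriptions throughout and support nothing. It holds 150 tested probes, with 43 tested below it and 27 above. At an unadjusted p under 0.05 were 51 of the 150 (34.0%), the 27 called included. Below the stretch it was 4 of the 43 (9.30%) and above it 4 of the 27 (14.8%), against 14.9% of all tested probes. The rest of chromosome 7 had 16 of 1190 probes called (1.34%) and the other chromosomes 295 of 17418 (1.69%). Within 20 Mb of Bak1, the other targeted gene, on chromosome 17, 36 of 662 were called (5.44%), 23 up and 13 down. Casp9 KO, in which Bak1 was not targeted, had 18 of the same 662 called (2.72%, against 1.14% of all probes). Whether these shares differ was not tested, and neighbouring genes are not independent.

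**Figure D1:**
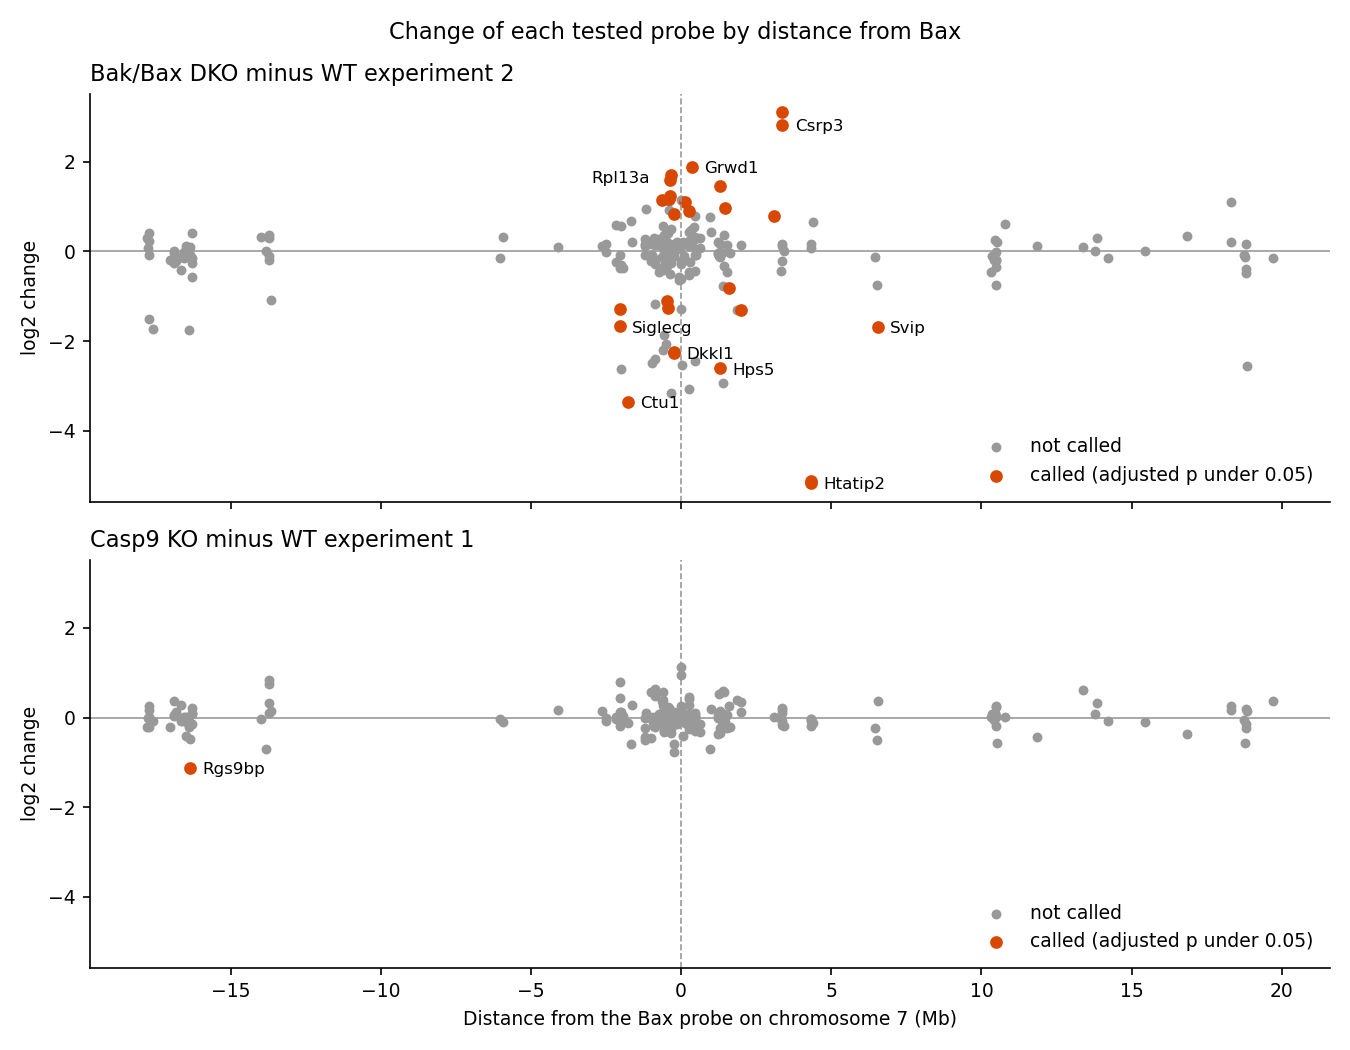
Log2 change of the 220 tested probes (y axis) against distance from the Bax probe in Mb (x axis), for Bak/Bax DKO minus WT experiment 2 above and Casp9 KO minus WT experiment 1 below; filled orange points are called. The 27 called probes of the upper panel lie between -2.04 and 6.54 Mb, and the lower panel has 1, Rgs9bp at -16.35 Mb.

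By bins, 10 of 68 probes were called from -1 to 0 Mb (14.7%), 3 of 30 from 0 to 1 Mb and 10 of 34 from 1 to 5 Mb (29.4%). On the lower side 3 of 22 were called from -5 to -1 Mb (13.6%). From 5 to 10 Mb only 3 probes were tested, and Svip was called. The share was not highest beside Bax, but the bins were not compared by a test. The 10 calls from 1 to 5 Mb include 2 Htatip2 probes that share 48 bases and 2 Csrp3 probes that share 34. They also include Mrgprb2, whose difference supports nothing. The edges of the stretch are coarse: beyond Svip the next tested probe was that of Siglech at 10.32 Mb (change -0.45, SE 0.15, limma adjusted p = 0.179). On the lower side the next gene was Zfp715, whose probes at -2.17 and -2.16 Mb changed by -0.24 and 0.59 (limma adjusted p = 0.613 and 0.174). At the ends of the window the nearest tested probes inside were those of Uba2 (-17.79 Mb, change 0.30) and Tjp1 (19.72 Mb, -0.15). Just outside were Rpl23a (-20.04 Mb, 0.16) and Tarsl2 (20.12 Mb, 0.03), and none of these 4 was called.

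**Figure D2:**
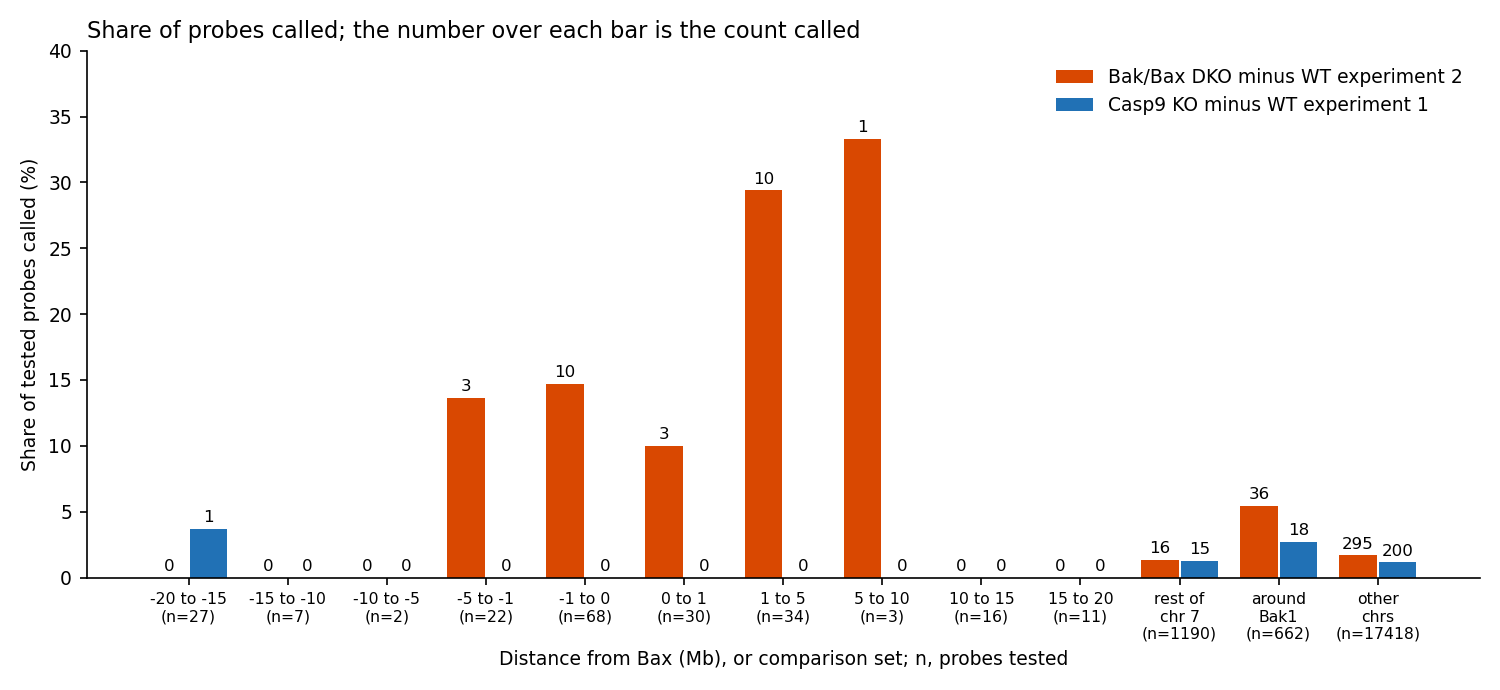
Share of tested probes called (y axis, percent) in bins of distance from Bax in Mb and, at the right, on the rest of chromosome 7, within 20 Mb of Bak1 and on the other chromosomes; the number over a bar is the count called and n is the number tested. Bak/Bax DKO bars stand above 0 only from -5 to 10 Mb among the bins, and Casp9 KO has 1 call, from -20 to -15 Mb.

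The largest fall was that of Htatip2, which encodes an oxidoreductase-like protein first found as a partner of the Tat protein of HIV and described as a metastasis suppressor. Its probe ILMN_2603837 (57028754 to 57028803, 4.31 Mb from Bax) stood at 9.59, 9.85 and 9.77 in WT experiment 2 and at 4.55, 4.61 and 4.54 in Bak/Bax DKO. The knockout arrays were all at background, and the 6 arrays of experiment 1 stood at 9.31 to 9.77. The change was -5.17 (SE 0.14, limma adjusted p = 2.5e-08), at least 28.4-fold lower. Such a bound sets the bright group's mean against the lowest signal above background on each dim array, or the probe's own value where that is higher. Probe ILMN_2603834 starts 2 bases further on and shares 48 bases with it, so the 2 do not give independent readings: it stood at 9.66, 9.88 and 9.78 against 4.85, 4.37 and 4.70. The remaining probe of the gene was at background on every array.

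The largest rise was that of Csrp3, the muscle LIM protein of the contractile apparatus of striated muscle. Probe ILMN_2742068 (56086006 to 56086055, 3.37 Mb) stood at 8.32, 8.51 and 8.20 in WT experiment 2 and at 11.17, 12.10 and 11.11 in Bak/Bax DKO. It rose by 3.11 (SE 0.28, limma adjusted p = 3.0e-04). Probe ILMN_2789651, which shares 34 bases with it, rose by 2.82 (SE 0.26), from 6.63, 7.03 and 6.94 to 9.48, 10.03 and 9.55. All 3 knockout arrays lay above all 9 others with both probes. Probe ILMN_2789650, which shares no base with ILMN_2789651 and starts 72 bases before it, stood at 9.07, 9.51 and 9.28 in WT experiment 2 and at 10.98, 5.27 and 10.98 in Bak/Bax DKO. Here 2 knockout arrays were high and replicate 2, the array that stood apart, was low. It gave a change of -0.21 (SE 1.18, limma adjusted p = 0.944), and of 1.69 without that replicate (adjusted p = 7.1e-04). The experiment 1 arrays stood at 8.05 to 8.78 with ILMN_2742068.

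Dkkl1 (Dickkopf-like 1, or Soggy), a secreted protein of the testis and other tissues, fell with 2 of its 3 probes. Probe ILMN_2627081 (52463162 to 52463211, -0.25 Mb) stood at 7.47, 8.0 and 7.73 in WT experiment 2 and at 5.45, 5.68 and 5.29 in Bak/Bax DKO, a change of -2.26 (SE 0.19, limma adjusted p = 2.1e-04). Probe ILMN_2752580, 2563 bases further on and with no base shared, went from 7.03, 7.24 and 7.43 to 5.11, 4.37 and 5.49 (change -2.24, SE 0.28). The groups did not overlap with either. The third probe starts 3 bases before ILMN_2627081, shares 47 bases with it and was above background on 2 of these 6 arrays, at 4.56 to 5.12.

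Fcgrt, the neonatal Fc receptor that returns IgG and albumin to the circulation, rose with both of its probes, which lie 202 bases apart and share none. Probe ILMN_1221819 (52348470 to 52348519, -0.37 Mb) stood at 7.11, 7.22 and 7.17 in WT experiment 2 and at 8.78, 9.10 and 8.44 in Bak/Bax DKO, and rose by 1.6 (SE 0.25, limma adjusted p = 0.0104). Probe ILMN_2917497 went from 5.71, 6.0 and 6.05 to 6.95, 7.14 and 7.37, a rise of 1.23 (SE 0.25, adjusted p = 0.0329). No knockout array overlapped with the 9 others. The call of the second probe ended without any 1 of 6 arrays (limma adjusted p of 0.0571 to 0.117), and that of the first without WT experiment 2 replicate 3 (0.0515). Cd74, of the antigen presentation markers, was higher in the same arrays (change 3.05, limma adjusted p = 0.00514), and its part in the Fcgrt result was not tested.

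Nosip, a ubiquitin ligase named for its binding to nitric oxide synthase, was read by 3 probes. ILMN_1225133 rose by 1.18 (SE 0.19, limma adjusted p = 0.0106), from 8.62, 8.94 and 8.75 to 9.87, 10.40 and 9.58. The other two, 2222 and 2243 bases away, changed by 0.93 and 1.12 (adjusted p = 0.196 and 0.0789). With all 3 probes the knockout arrays lay above the 9 others, replicate 2 highest.

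**Figure D3:**
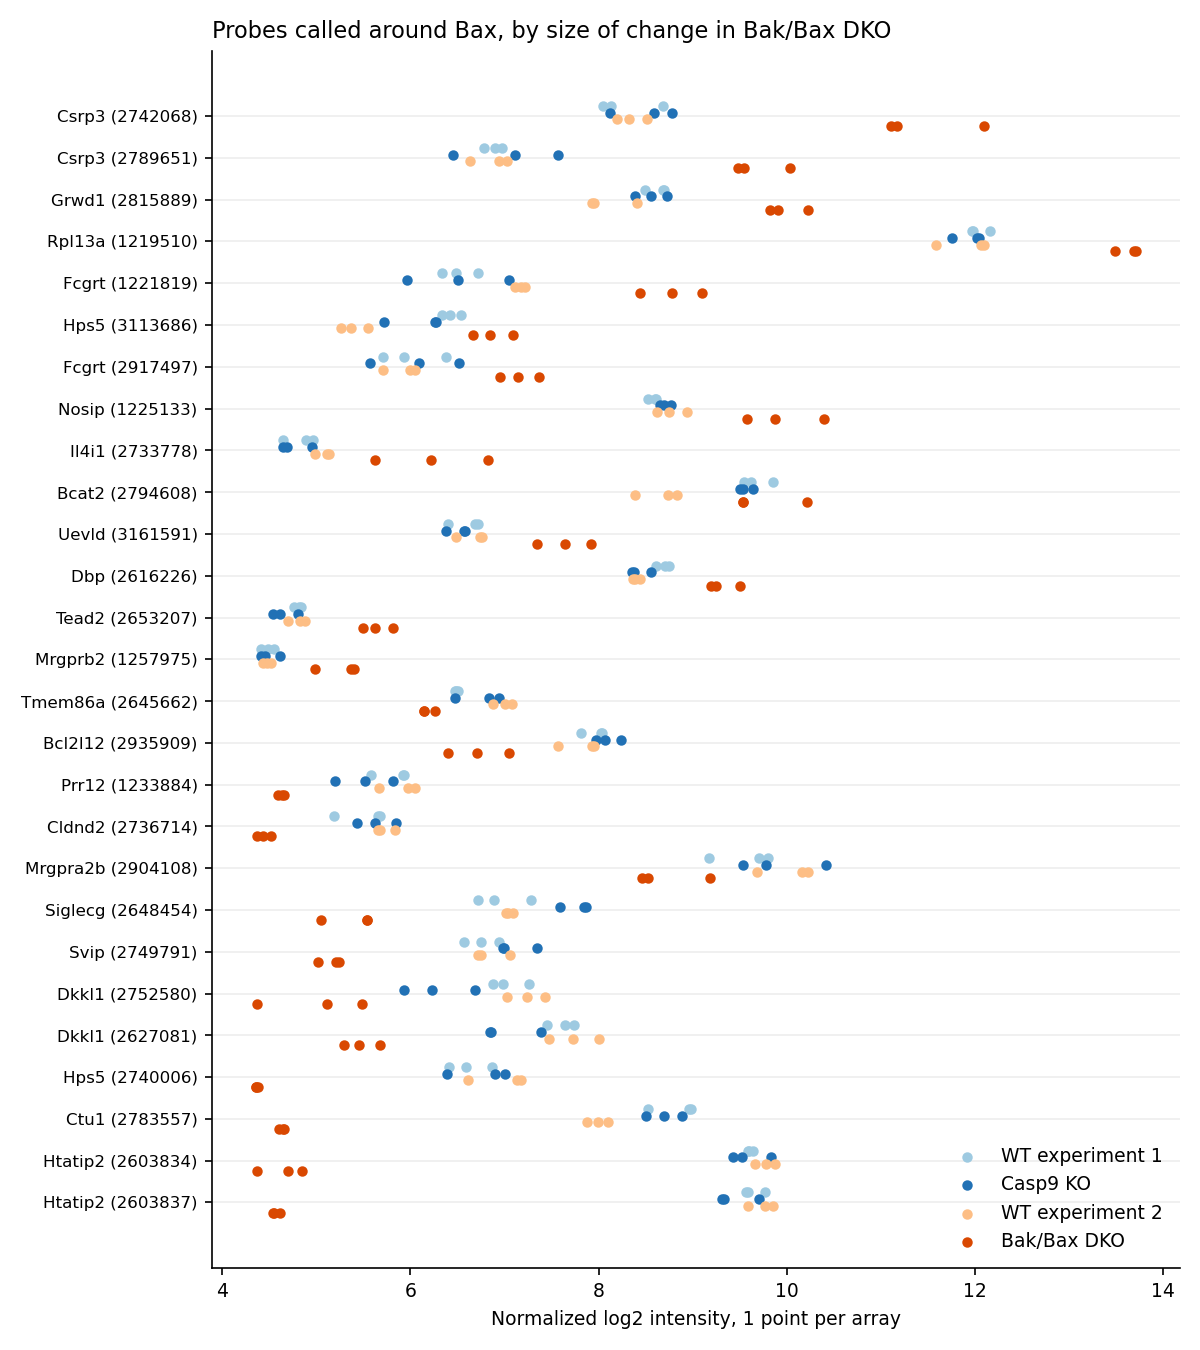
Normalized log2 intensity (x axis) on each of the 12 arrays for the 27 called probes (rows, with the digits of the probe name), ordered by change in Bak/Bax DKO; each point is 1 array and colour marks the group. In every row the Bak/Bax DKO points are clear of the WT experiment 2 points, from Htatip2 at 4.37 to 4.85 against 9.59 to 9.88 up to Csrp3 at 11.11 to 12.10 against 8.20 to 8.51.

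The second comparison asked whether sister probes of a gene reported the same change. Among the flanking genes 55 had more than 1 tested probe, which gave 76 pairs of the brightest probe with each other probe. In 6 pairs the difference between the probes changed in Bak/Bax DKO at a limma adjusted p under 0.05 over all pairs, against 0.201% of the 6974 pairs of the array (14 pairs). All 6 lay in the stretch of 8.58 Mb, which holds 53 of the 76. In Casp9 KO 0 of the 76 were called by limma, and 0.0430% of all pairs. The median size of the pair difference was 0.43 over the 76 flanking pairs and 0.25 over all pairs in Bak/Bax DKO. In Casp9 KO these medians were 0.12 and 0.13.

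Hps5, a subunit of the BLOC-2 complex that builds lysosome-related organelles such as pigment granules, showed opposite changes with probes 171 bases apart. Probe ILMN_3113686 (54016039 to 54016088, 1.30 Mb) stood at 5.37, 5.55 and 5.26 in WT experiment 2 and at 6.85, 7.09 and 6.66 in Bak/Bax DKO. It rose by 1.47 (SE 0.18, limma adjusted p = 0.00246). Probe ILMN_2740006 (54015868 to 54015917) went from 6.61, 7.13 and 7.18 to 4.36, 4.38 and 4.36, which is background, a change of -2.61 (SE 0.21, adjusted p = 1.2e-04) and at least 4.19-fold lower. The groups did not overlap with either probe. The fitted pair difference was 4.08 (SE 0.18, adjusted p = 3.4e-06), but with 1 probe at background on all 3 knockout arrays its true size is not measured. With ILMN_3113686 the wild types were themselves apart, at 6.33 to 6.54 in experiment 1.

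Rpl13a, a protein of the large ribosomal subunit, rose with one probe alone. ILMN_1219510 (start 52381870, -0.34 Mb) went from 11.59, 12.10 and 12.07 to 13.69, 13.71 and 13.49, a rise of 1.71 (SE 0.16, limma adjusted p = 3.8e-04). Its sister ILMN_2707834, which starts 700 bases before it, stood at 11.75, 11.67 and 11.93 and at 11.33, 11.76 and 11.49 (change -0.26, SE 0.15, adjusted p = 0.439). Both probes were bright on all arrays, and the difference between them changed by 1.97 (SE 0.17, adjusted p = 9.1e-04). Ribosomal protein genes have many processed copies in the genome, so which transcripts these probes bind is uncertain.

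Grwd1, a WD-repeat protein that acts in ribosome assembly, rose by 1.89 (SE 0.17, limma adjusted p = 3.0e-04) with probe ILMN_2815889 (53080934 to 53080983, 0.36 Mb), from 7.93, 7.95 and 8.41 to 9.91, 10.23 and 9.82. The brighter probe, 118 bases further on, stood at 9.03, 9.54 and 9.39 and at 9.37, 9.62 and 9.35, where the groups overlapped (change 0.13, SE 0.16, adjusted p = 0.714). The pair differed by -1.77 (SE 0.18, adjusted p = 0.00248).

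Dhdh, a dihydrodiol dehydrogenase and the nearest gene above Bax at 0.01 Mb, had 2 tested probes 166 bases apart. Neither was called alone. ILMN_1234086 stood at 7.75, 8.01 and 7.42 in WT experiment 2 and at 8.92, 9.66 and 8.04 in Bak/Bax DKO (change 1.15, SE 0.38, limma adjusted p = 0.179). ILMN_2971314 stood at 5.52, 6.23 and 6.10 and at 4.50, 5.15 and 4.37 (change -1.28, SE 0.29, adjusted p = 0.0552). One was higher and the other lower in the knockout, and their difference changed by 2.43 (SE 0.27, adjusted p = 0.00555). ILMN_2971314 was above background on only 4 of these 6 arrays, so the true size of this difference is not measured. The wild types of the 2 experiments were 1.80 and 1.25 apart with these probes.

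The remaining called pairs, those of Siglecg and Dkkl1, also rested on a dim probe. Siglecg, an inhibitory receptor for sialic acids on B cells, fell with ILMN_2648454 (50673331 to 50673380), from 7.04, 7.09 and 7.02 to 5.05, 5.54 and 5.54 (change -1.67, SE 0.18, limma adjusted p = 0.00101). Its sister, 8464 bases away, was above background on 1 of the 6 arrays, as was the third Dkkl1 probe on 2. Beside the fall of Siglecg, Cd79a of the B cell markers fell too (change -0.78, adjusted p = 0.0317), while Cd79b changed by -0.16 (adjusted p = 0.676). Of the 8 B cell markers Ms4a1, Pax5, Cd22 and Blk were too dim to test. The summed intensity of the B cell markers was 528 to 769 in Bak/Bax DKO and 625 to 805 in WT experiment 2, and the part of these cells was not tested. In a second set, every pair of probes of a gene, not only those with the brightest probe, was taken where both were above background on all 6 arrays. Of its 52 flanking pairs 2 were called (Rpl13a and Grwd1), against 0.0948% of its 6328 pairs.

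**Figure D4:**
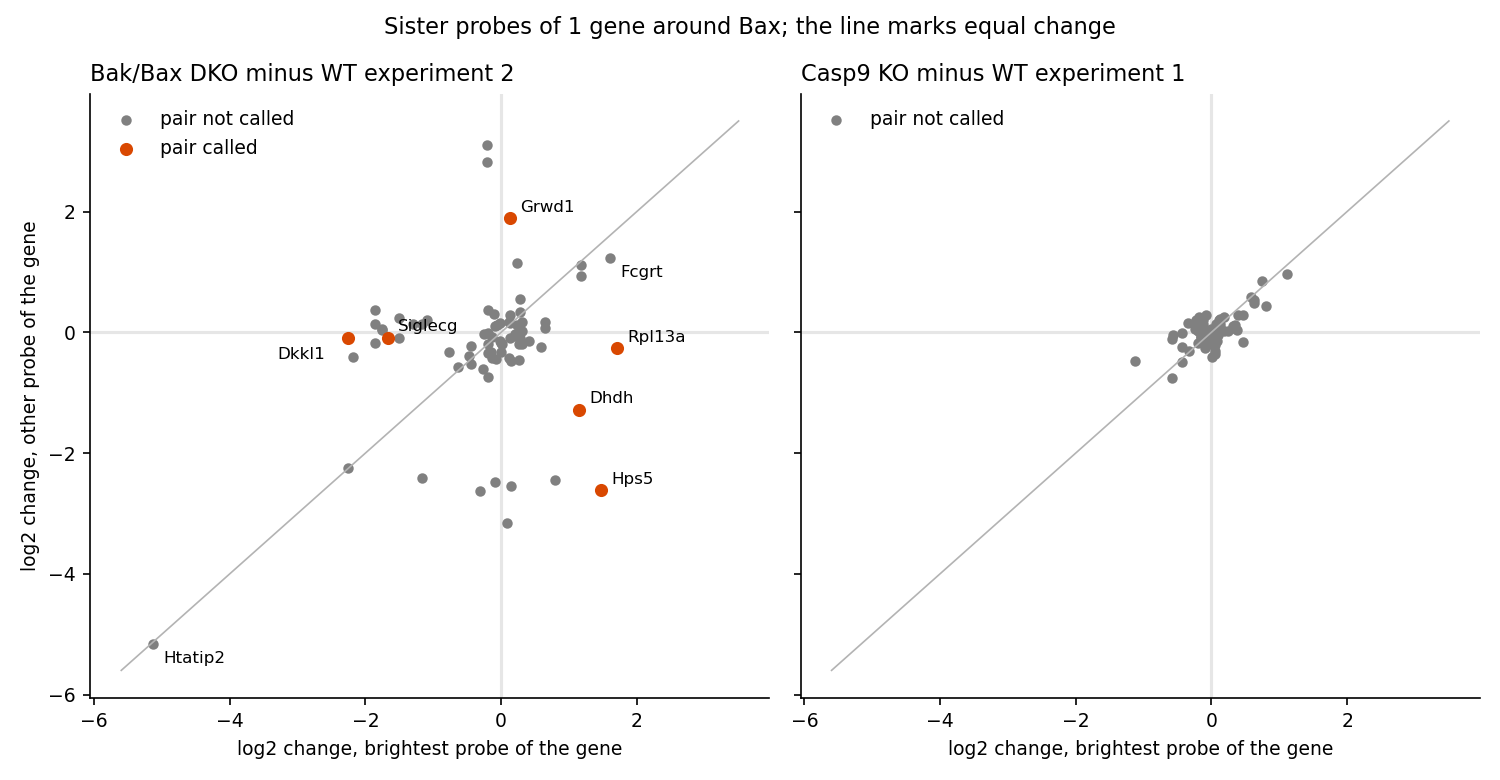
Log2 change of the brightest probe of a gene (x axis) against that of each other probe (y axis) for the 76 flanking pairs, in Bak/Bax DKO on the left and Casp9 KO on the right; the diagonal marks equal change and orange points are called pairs. On the left Htatip2 and Fcgrt lie near the diagonal while Hps5, Dhdh, Rpl13a and Grwd1 lie off it, and on the right no pair is called.

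Of the 22 called genes, 10 had 1 tested probe and 12 had several. Among these 12, the probes were all called in 1 direction in 2 genes, Htatip2 and Fcgrt. In 9 genes only some were called, and in Hps5 they were called in both directions. Over the 68 pairs that share no base, both probes were called in 1 direction in 2, those of Fcgrt and Dkkl1. Sequence differences under the probes were not tested, because neither the probe sequences nor the DNA of these cells were used here.

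Single probes with the larger falls included that of Ctu1, a subunit of the enzyme that adds sulphur to the wobble uridine of transfer RNAs. It (ILMN_2783557, 50933394 to 50933443, -1.78 Mb) went from 7.99, 7.88 and 8.10 to background at 4.66, 4.6 and 4.64, with no overlap with the 9 other arrays. The change was -3.36 (SE 0.16, limma adjusted p = 1.1e-06), at least 8.49-fold lower. Svip, an inhibitor of protein disposal from the endoplasmic reticulum, went from 7.06, 6.72 and 6.75 to 5.21, 5.02 and 5.24 (change -1.69, SE 0.16, adjusted p = 3.8e-04). It was the called probe farthest from Bax.

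Smaller falls were seen in Cldnd2, a claudin-domain protein (at least 1.76-fold), Prr12 (at least 1.98-fold), Bcl2l12, a proline-rich relative of BCL-2 (change -1.10), and Tmem86a, a lysoplasmalogen-cleaving membrane enzyme (-0.81). Their limma adjusted p ran from 0.00354 to 0.0154. Mrgpra2b, one of the Mas-related receptors of sensory neurons, fell by 1.30 (adjusted p = 0.049), and its sister 59 bases away changed by 0.14 (adjusted p = 0.8). Mas-related receptor genes form a family of close copies, so which of them a probe binds is uncertain. The sister of the Bcl2l12 probe was near background, at 4.70 to 5.25 in experiment 2.

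Single probes that rose included those of metabolic enzymes and regulators. Bcat2, the mitochondrial branched-chain aminotransferase, went from 8.39, 8.83 and 8.74 to 9.54, 10.22 and 9.54 (change 1.11, SE 0.20, limma adjusted p = 0.0182). The knockout arrays lay above WT experiment 2 but overlapped with the arrays of experiment 1, at 9.50 to 9.85. Dbp, a circadian transcription factor of the PAR bZIP family, went from 8.44, 8.37 and 8.39 to 9.19, 9.50 and 9.25 (change 0.91, SE 0.13, adjusted p = 0.00529), above all 9 others. Uevld, a protein with a ubiquitin-conjugating enzyme variant domain, rose by 0.97 (adjusted p = 0.0172).

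Il4i1, a secreted amino acid oxidase of immune cells, rose by 1.15 with one probe (SE 0.25, limma adjusted p = 0.0476) and changed by 0.23 with another, which the annotation places on the opposite strand. Tead2, a transcription factor of the Hippo pathway, stood at 4.70 to 4.88 in WT experiment 2, at background, and at 5.50 to 5.81 in Bak/Bax DKO, at least 1.69-fold higher. Mrgprb2, a receptor of connective tissue mast cells, was at background in WT experiment 2 and at 4.99 to 5.40 in Bak/Bax DKO, at least 1.29-fold higher. No list of mast cell markers was examined.

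Most tested probes right beside Bax were not called, but the share called was not low. Within 1 Mb it was 13 of 98 (13.3%), against 12.3% of the flanking probes and 1.82% of all. Of the 10 tested probes nearest on the lower side, Dkkl1 and Tead2 were called, and of the 10 on the upper side, Bcat2 and Dbp. Tead2 passed the brightness filter through Bak/Bax DKO arrays only. The upper 10 include the 2 Dhdh probes described above, whose pair difference was called. Ftl1, the ferritin light chain next to Bax, changed by -0.21 (SE 0.13, limma adjusted p = 0.443). Gys1, the muscle glycogen synthase, changed by -0.27 and -0.61, and Ruvbl2, a chromatin-remodelling ATPase, by 0.06. Snrnp70, a protein of the U1 spliceosomal particle, changed by -0.64 and -0.57 with 2 probes (adjusted p = 0.354 and 0.249). Cd37, a leukocyte tetraspanin, changed by 0.17, the liprin gene Ppfia3 by 0.21, and Ppp1r15a, a stress-induced phosphatase subunit also called GADD34, by 0.21. Hsd17b14, a hydroxysteroid dehydrogenase, changed by -0.10, and Sphk2, a sphingosine kinase, by 0.12 and 0.24. Nucb1, a calcium-binding Golgi protein, was read by 2 probes at 0.03 Mb. One changed by 0.14, and the other stood at 11.57, 4.22 and 11.31 in Bak/Bax DKO, low on replicate 2 alone.

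Over the 193 tested probes that were not called, 16 were low on Bak/Bax DKO replicate 2 in this way, among them probes of Rpl18 (13.79, 4.21 and 13.67) and Ldha (13.03, 4.29 and 12.98). Rpl18 is a ribosomal protein and Ldha is lactate dehydrogenase A. Their SE was 1.94 and 1.78, and without that replicate they changed by 0.11 and -0.03. The other 177 probes changed by -1.31 to 1.15, with a median of 0.00 and 150 under 0.5 in size. The largest of these was Mrgprb1, another Mas-related receptor, with a change of -1.31 (SE 0.29, limma adjusted p = 0.0524).

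The called probes were spread over several lists of genes grouped by function. The lists were chosen with earlier results of these data known, and their counts stand beside 1.43% of all probes that rose and 0.392% that fell. Among 22 probes of 13 transcription factor and cyclin genes, 2 rose (Dbp and Tead2) and 0 fell, with a median change of -0.02 against 0.08 over all probes. Tead2 passed the brightness filter through Bak/Bax DKO arrays only, so its part of this count supports nothing. The third smallest p was that of Zfp473, a zinc finger protein (change -0.46, limma adjusted p = 0.153). Of 11 probes of 7 leukocyte surface and ligand genes, 3 rose (Fcgrt with 2 and Il4i1) and 1 fell (Siglecg), with a median of 0.17. Of 5 ribosome and translation probes 1 rose (Rpl13a; median -0.26). Of 7 apoptosis and stress probes 1 fell (Bcl2l12; median -0.11).

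Against the same 1.43% and 0.392% of all probes, 2 of 17 RNA processing and chromatin probes of 10 genes rose (Grwd1 and Nosip; median 0.09). Of 14 membrane traffic and cytoskeleton probes 2 rose (Hps5 and Uevld) and 1 fell (Hps5; median 0.02). Of 17 metabolism probes 1 rose (Bcat2; median -0.19). Beside it the smallest p were those of Gys1 and of Aldh16a1, an aldehyde dehydrogenase family member (change 0.49, limma adjusted p = 0.308). Of 5 DNA repair and replication probes 0 were called by limma, 0 at an unadjusted p under 0.05, against 14.9% of all tested probes.

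The tested probes of genes syntenic with human 15q11-q13, imprinted neighbours included, begin above the stretch, at 10.35 Mb from Bax. Of these 18 probes for 11 genes 0 were called by limma, 2 at an unadjusted p under 0.05, against 14.9% of all tested probes. Nipa2, a magnesium transporter, changed by -0.74 with one probe (SE 0.17, adjusted p = 0.0588) and by -0.34 to -0.02 with 4 others. Herc2, a large ubiquitin ligase, changed by 0.61 (SE 0.18, adjusted p = 0.135). The median of the list was -0.05. In Casp9 KO 0 probes of any of these lists were called by limma.

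The third comparison asked whether Casp9 KO, which targets a gene on chromosome 4, showed calls around Bax. By limma 1 of the 220 flanking probes was called (0.455%), against 1.14% of all 18867. It was a probe of Rgs9bp, the membrane anchor of a photoreceptor signalling protein, at -16.35 Mb and outside the stretch. It went from 8.24, 8.16 and 8.19 in WT experiment 1 to 7.07, 7.25 and 6.92 (change -1.12), and its sister changed by -0.47. This call is not firm: 0 flanking probes were called without any 1 of 8 of the arrays. The count was 8 with only the 6 arrays of experiment 1 (4.10%, against 4.27% of all), and 12 without Bak/Bax DKO replicate 2 (5.53%, against 4.32%), which enters through the shared estimate of spread.

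Of the 27 probes called in Bak/Bax DKO, 24 changed by under 0.5 in Casp9 KO. The other 3 were Siglecg at 0.80 and Dkkl1 at -0.58 and -0.76, none of them called there. The difference between the 2 knockout effects was itself called for 19 of the 220 flanking probes (8.64%), against 1.49% of all probes. All 19 lay in the stretch, and 17 of them were among the 27. The other 2 were the lower Dhdh probe and Kcnc1, a voltage-gated potassium channel, with a change of 0.77 in Bak/Bax DKO and -0.71 in Casp9 KO.

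Arrays were also compared without a test. The 3 Bak/Bax DKO arrays lay all above or all below the 9 other arrays for 47 of the 220 flanking probes (24 above, 23 below), where 7.04% of all probes did. Of the 27 called probes 25 were outside all 9 others, the exceptions being Bcat2 and Mrgpra2b, so this count in part repeats the calls.

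The calls of 16 of the 27 probes were kept whichever of the 12 arrays was left out, among them Htatip2, Ctu1, both Hps5 probes, Csrp3, Dkkl1, Grwd1, Rpl13a, Siglecg and Svip. Each of the other 11 calls ended without at least 1 array: Il4i1 and Mrgpra2b kept theirs in 2 of 12 such fits, the dimmer Fcgrt probe and Mrgprb2 in 6, Tead2 in 8 and Uevld in 9. Tead2 and Mrgprb2 were above background on Bak/Bax DKO arrays only, so they were not tested without any 1 of these arrays. Such fits are counted here as not kept. Without Bak/Bax DKO replicate 2, the array that stood apart, 36 of 217 were called (16.6%, against 2.90% of all), 25 of them among the 27. All 36 lay between -2.04 and 6.54 Mb. Without Bak/Bax DKO replicate 1, 23 of 25 calls lay there, and with no brightness filter 24 of 25. Calls added without replicate 2 included Etfb, a subunit of the electron transfer flavoprotein, and Clec11a, a secreted growth factor of blood progenitors. In that fit the 2 Etfb probes changed by -0.65 and -0.70, and Clec11a by 0.62. With only the 6 arrays of experiment 2, 11 of 203 were called (5.42%, against 0.223% of all), all in the stretch, and the call of Bax itself ended (adjusted p = 0.0532).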

How the data were processed

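Expression was measured with 1 biotin-labelled sample per array on 12 arrays, from at most 250 ng of total RNA. The deposited bead intensity is on a linear scale, 1 value per probe and array, and the deposited detection score beside it rises with intensity (Spearman correlation at least 0.984), so it was read as 1 minus the detection p. The authors also deposited normalized log2 values, which were used here. GenomeStudio and limma are named in the submitters' processing notes. An offset of 16 with neqc of limma on the deposited intensity gave those log2 values within 0.0197.

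Probes above background on at least 3 arrays were kept (18867). All 12 arrays entered 1 limma fit with a mean for each of the 4 groups (limma 3.58.1, R 4.3.3; 8 residual degrees of freedom, eBayes, two-sided, Benjamini-Hochberg over all probes, or over all 6974 sister pairs on the per-array difference of log2 values). The fit was tested on simulated data. The members, lists and tests were chosen with earlier results of these data known. Named probes are Bax, every flanking probe called with its sisters, called pairs, the 10 tested probes nearest on each side, the 3 smallest p of each list and those at the window's ends. Other genes named were chosen after their values were seen, and some results are not reported here. Names came from the Entrez ID for 38837 probes, and 3 of the 504 flanking probes with a reference chromosome lie elsewhere in GRCm38.p6. 20 flanking probes are placed in 2 parts. Of the probes placed in 1 part, 95.5% are 50 bases long. Alternatives covered the normalization, the filter, array weights, the arrays fitted, a replicate block, each array left out, 1 probe per gene and the window, and, added after the data were seen, leaving out probes above background on Bak/Bax DKO arrays only.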

Additional observations from a re-analysis of the deposited data

Results flagged for a closer look

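For 19 of the 220 flanking probes the effect of Bak/Bax DKO against its wild type differed from that of Casp9 KO against its own, at a limma adjusted p under 0.05 for the difference of the 2 effects (log2). The 8 positive differences were 1.81 for Rpl13a ILMN_1219510, 0.99 for Tead2 ILMN_2653207, 1.17 for Dbp ILMN_2616226, 1.95 for Grwd1 ILMN_2815889, 1.49 for Kcnc1 ILMN_2717814, 1.82 for Hps5 ILMN_3113686, 2.67 for Csrp3 ILMN_2789651, 2.90 for Csrp3 ILMN_2742068. The 11 negative differences were -2.47 for Siglecg ILMN_2648454, -1.41 for Cldnd2 ILMN_2736714, -3.23 for Ctu1 ILMN_2783557, -1.23 for Bcl2l12 ILMN_2935909, -1.68 for Dkkl1 ILMN_2627081, -2.24 for Dhdh ILMN_2971314, -2.76 for Hps5 ILMN_2740006, -1.07 for Tmem86a ILMN_2645662, -4.98 for Htatip2 ILMN_2603837, -5.11 for Htatip2 ILMN_2603834, -2.04 for Svip ILMN_2749791. Adjusted p ran from 1.5e-06 for Htatip2 ILMN_2603837 to 0.0464 for Bcl2l12. Tead2 passed the brightness filter through Bak/Bax DKO arrays only, so its difference supports nothing. Of the probes listed, Htatip2 ILMN_2603837, Cldnd2, Ctu1 and the falling Hps5 probe were at background on all Bak/Bax DKO arrays, so the sizes of their differences are bounds. Htatip2 ILMN_2603834 and the Dhdh probe were above background on 4 of the 6 arrays of experiment 2, so their sizes are not fully measured either. In 4 of them the Casp9 KO effect was over 0.5 in size, at 0.96 for the Dhdh probe, 0.80 for Siglecg, -0.71 for Kcnc1 and -0.58 for Dkkl1, so these differences drew on both knockouts. The 2 knockouts were run in separate experiments on separate beadchips, each beside its own wild type, and a beadchip effect that acts on 1 genotype alone cannot be told apart from the genotype.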

How the results depend on the processing

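The 27 calls of Bak/Bax DKO became 11 with only the 6 arrays of experiment 2, and 18 to 36 with 1 array left out, the fewest without WT experiment 2 replicate 1 or 3. The single Casp9 KO call became 0 with no filter, with windows of 10 or 5 Mb and with the block, 8 with only its 6 arrays and 14 with array weights, and ranged from 0 to 12 with 1 array left out, the most without Bak/Bax DKO replicate 2. The 19 differences between knockout effects became 36 with array weights, 12 with the block and 13 to 37 with 1 array left out, 37 without that replicate. The 6 called sister pairs became 11 with no filter, 1 with only the 6 arrays, 2 among pairs bright on all 6 arrays and 4 to 7 with 1 array left out. The count of 47 probes outside all 9 other arrays ranged from 46 to 72, the highest without that replicate. The other settings run kept each of these counts within 1.5 times. Without probes above background on Bak/Bax DKO arrays only, a choice made after seeing the data, 24 were called. Csrp3 ILMN_2789650 turned from -0.21 to 1.69 without Bak/Bax DKO replicate 2, and ranged from -1.17 to that value with 1 array left out. Over 68 named probes, 1299 of 1380 alternative values kept the call or its absence, 71 lost the call, 9 gained one and 1 turned direction with a call. A turn of direction between 2 fits without a call was counted as kept. Il4i1 and Mrgpra2b kept theirs in 2 of 12 fits with 1 array left out. Probes near background give bounds only.

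No pairing of samples by replicate number was evident, though groups of 3 arrays cannot exclude one. Deviations from the group means correlated at 0.20, -0.08 and 0.07 in experiment 1 and at 0.11, 0.05 and 0.06 in experiment 2. With the replicate number as a block, 19 flanking probes were called in Bak/Bax DKO, 0 in Casp9 KO, 12 for the difference of effects and 4 sister pairs.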

Other observations

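The 2 wild types differed by more than 1 (log2, WT experiment 2 minus WT experiment 1) for 8 of the 220 flanking probes, 2 of them among the 27 called. The largest differences were those of Agxt2l2 (2.54) and of Snrnp70 ILMN_2546888 (2.47), the latter at 4.39 to 4.67 in experiment 1 and 6.59 to 7.47 in experiment 2. Dhdh differed by 1.80 and 1.25, Fam83e by 1.41, Bcat2 by -1.02, Gabrg3 by -1.01 and Hps5 ILMN_3113686 by -1.04. The wild types share their label, and experiment and beadchip cannot be told apart here.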
